A study of Mus musculus with 10 samples.

Results

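The Ly6 family members Ly6a (the gene of Sca-1), Ly6e, Ly6c1, Ly6c2, Ly6d and Ly6k were described in RNA-seq of mouse hematopoietic stem cells. The 6 genes were taken by their symbols, and all 6 of them were found among the 33393 genes of the deposited tables, with 35 transcripts between them. The cells were CD34- HSCs, sorted from bone marrow of 8-week-old C57BL/6 mice as lineage-negative cells with Sca-1 and c-Kit but without CD34 and Flt3 on their surface. Control mice were Reg1 flox/flox without Cre, and Reg1Δ/Δ mice were Vav1-iCre; Reg1 flox/flox, so that both groups carried the floxed alleles of Regnase-1 (Zc3h12a). Vav1-iCre is active throughout the blood system, and the deletion is therefore not limited to HSCs. The sample names divide the libraries into a first experiment (3 Control and 3 VavKO libraries) and a second experiment (2 Control_LT-HSC and 2 VavReg1_KO_LT-HSC libraries). Each experiment was compared with its own controls, called the first and the second controls.

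Ly6 proteins are small cysteine-rich proteins of the three-finger fold, most of them held on the outer face of the plasma membrane by a glycosylphosphatidylinositol (GPI) anchor. In blood they are best known as surface markers. Sca-1 marks hematopoietic stem and progenitor cells and is induced by interferons, Ly6C marks monocytes and granulocyte precursors, and Ly6D marks lymphoid progenitors that are committed to the B lineage.

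The members lie within 349.9 kb of chromosome 15 (GRCm38, GENCODE M21). From the first to the last base, Ly6d spans 74762056 to 74763620, Ly6k 74796874 to 74799986, Ly6e 74955051 to 74959905, Ly6a 74994877 to 74998031, Ly6c1 75044018 to 75048830, and Ly6c2 75108158 to 75111970. Ly6e is on the plus strand and the other 5 members are on the minus strand. Ly6k is overlapped by the annotated gene Gm17189, and the library kit is not one that marks strand, so reads of the overlap cannot be told apart.

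Ly6a, Ly6c1 and Ly6c2 are close copies of one another, which bears on how far their values can be told apart. Ly6c1-201 and Ly6c2-201, which carry the full coding sequences of the Ly6C genes, were identical at 97.7% of 393 coding bases. Ly6a-201 was identical to Ly6c2-201 at 81.6% of the aligned coding positions, whereas the Ly6e and Ly6d coding sequences were identical to that of Ly6a at 52.7% and 51.4% of positions. The middle coding exon of Ly6c1 (chr15:75047353-75047469, minus strand) and of Ly6c2 (chr15:75110511-75110627, minus strand) held the same 117 bases. This exon of Ly6c2 is shown beside that of Ly6a (chr15:74996452-74996568, minus strand), because a read from it can separate Ly6a from the Ly6C genes but not Ly6c1 from Ly6c2. Capitals mark the 25 positions at which the pair differs.
Ly6c2 and Ly6a compared, Ly6c2: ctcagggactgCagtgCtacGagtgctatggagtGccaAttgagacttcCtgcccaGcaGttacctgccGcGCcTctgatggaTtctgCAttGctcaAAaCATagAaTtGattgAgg
Ly6c2 and Ly6a compared, Ly6a: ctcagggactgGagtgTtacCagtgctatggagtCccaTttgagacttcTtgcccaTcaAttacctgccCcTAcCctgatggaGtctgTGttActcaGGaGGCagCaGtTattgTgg

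Ly6c1 and Ly6c2 differed more in the first coding exon, which holds 6 of the coding differences. It is shown for Ly6c1 (chr15:75048442-75048511, minus strand) and Ly6c2 (chr15:75111598-75111667, minus strand), with the differing bases in capitals.
Ly6c1 first coding exon: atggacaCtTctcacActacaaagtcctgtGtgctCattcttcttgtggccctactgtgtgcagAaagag
Ly6c2 first coding exon: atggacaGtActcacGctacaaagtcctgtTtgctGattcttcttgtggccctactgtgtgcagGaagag

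Of the runs of 31 bases in Ly6c1-201, 57.13% also occurred in a transcript of another gene of the tables, and 48.03% occurred in Ly6c2. The share was 53.79% for Ly6c2-201 and 22.18% for Ly6a-201, and no run of Ly6e-215, Ly6d-201 or Ly6k-202 was shared. Salmon divides the reads of such stretches between the genes by estimation, so that the values of Ly6c1, at 0 to 0.0583 times the TPM of Ly6c2 in the same library, are uncertain.

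The values are TPM (transcripts per 1000000), a relative abundance corrected for transcript length, which were summed over the transcripts of each gene. Read numbers cannot be had from TPM, and neither depth nor counting error is therefore known. Genes that reached 1 TPM in 5 or more of the 10 libraries (12874 genes) entered limma. The fit used log2(TPM + 1) and had a term for the experiment, and p-values were adjusted over all 12874 genes (FDR). Of the 6 members, 5 passed this filter and Ly6k did not. Ly6c1, Ly6c2 and Ly6d were at their highest in controls, and Ly6c1 and Ly6d reached the filter mainly through them.

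Zc3h12a itself was not lower in the libraries labelled Reg1Δ/Δ. It was 1.28 to 1.83 TPM in the first controls and 2.08 to 3.54 TPM in VavKO, and 1.48 and 6.07 TPM in the second controls and 8.52 and 10.3 TPM in VavReg1_KO_LT-HSC. It was thus higher under the Reg1Δ/Δ label (log2 fold change 0.83, SE 0.282; limma, FDR 0.0314), and the libraries are therefore called by their labels. These values are summed over whole transcripts, do not separate the floxed part of the gene and so do not check its deletion. By limma, 37.9% of all tested genes were lower and 15% higher under the Reg1Δ/Δ label. Beside these shares, 10 of 11 tested stem cell markers were lower, and their defining markers Procr (0.11 to 1.36 TPM against 19.8 to 37.3 TPM in controls) and Hlf (0.79 to 2.72 TPM against 33.9 to 176 TPM) were near 0 there. Of 7 erythroid markers, 4 rose and 2 fell. Among the genes of the other sort markers, Kit (gated positive) and Cd34 and Flt3 (both gated negative) were all lower by limma (log2 fold change of -1.39, -3.02 and -2.85, FDR 0.000108, 1.09e-05 and 3.01e-06). In bulk RNA, fewer cells of a type and less RNA per cell cannot be told apart.

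In controls, the order of the members by TPM was the same in all 5 libraries. Ly6e was highest, followed by Ly6c2, Ly6a, Ly6d, Ly6c1 and Ly6k. The ranges of the last pair overlapped (1.37 to 5.08 TPM for Ly6c1, 0 to 1.94 TPM for Ly6k), and those of the other neighbours in the order did not. In libraries labelled Reg1Δ/Δ, Ly6e was still highest, but Ly6a came before Ly6c2 in 5 of 5 libraries, and Ly6d, Ly6c1 and Ly6k lay together between 0 and 2.53 TPM. The summed TPM of the 6 members was 1370 ± 253.8 (SD, n = 5) in controls and 1348 ± 294.5 (SD, n = 5) in libraries labelled Reg1Δ/Δ, which differed by less than the spread (two-sided exact test permuting labels within experiments, p = 0.833).

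**Figure D1:**
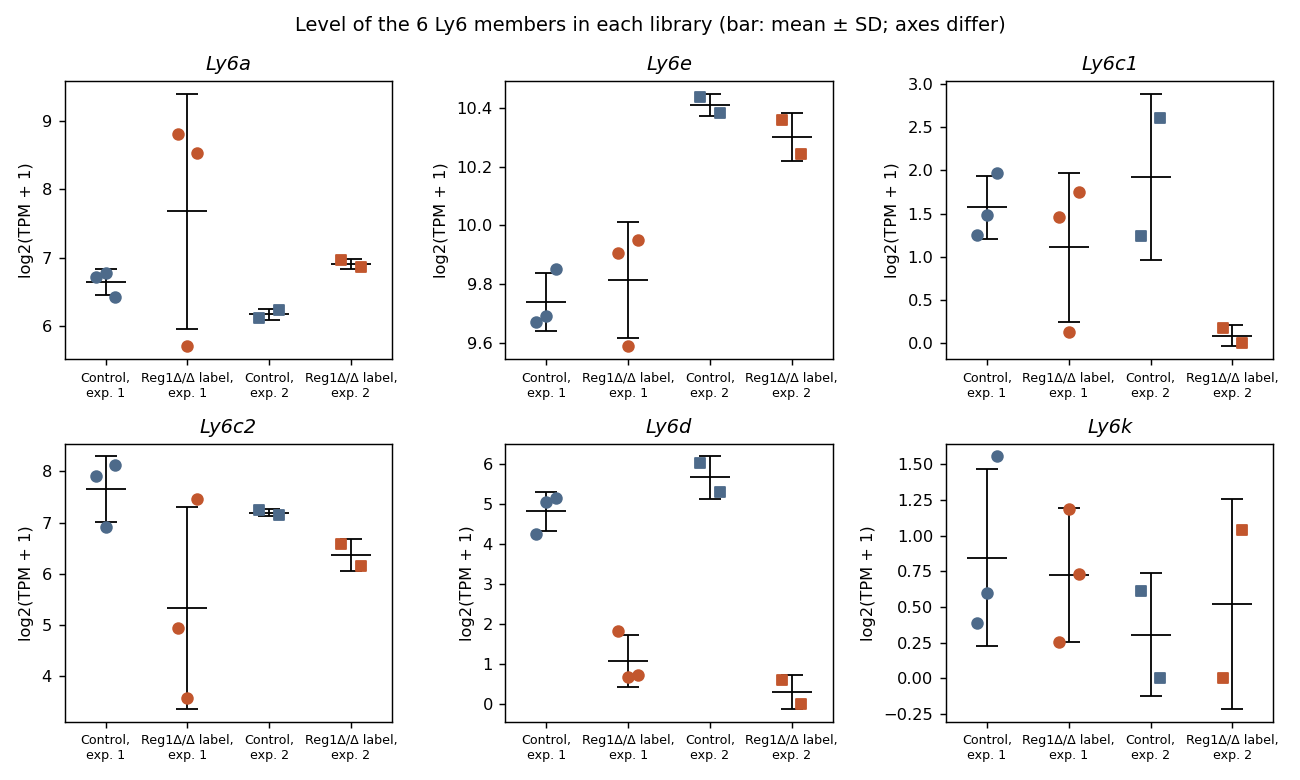
Level of each member as log2(TPM + 1) in the 10 libraries, by group; circles are the first experiment, squares the second, blue Control and orange the Reg1Δ/Δ label, and bars give the mean ± SD (n = 3 in the first, n = 2 in the second experiment). Ly6d was at 18.0 TPM or more in every control and at 2.53 TPM or less in every library labelled Reg1Δ/Δ, and 1 VavKO library stood apart from the other two in Ly6a.

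By limma over all 10 libraries, 2 of the 5 tested members were lower in libraries labelled Reg1Δ/Δ (Ly6d and Ly6c2), against 37.9% of all tested genes, and none of the 5 was higher, against 15% of all tested genes. At an unadjusted p under 0.05 these numbers were 3 lower and 0 higher, beside 7555 of the 12874 tested genes in either direction, and by the exact permutation test none was higher either. Lower values in every library within both experiments, with no overlap, were seen for 1 of 5 members (Ly6d) and for 31.4% of tested genes, and higher values with no overlap for 0 of 5 members and for 12.7% of tested genes. None of the 5 effects differed between the experiments in limma's interaction test at an FDR of 0.05, as 0.443% of tested genes did, and 1 of them (Ly6d) had an unadjusted p under 0.05. The calls moved with the scaling. With median-of-ratios scaling Ly6a and Ly6e were higher (limma, FDR 0.0482 and 0.00916) and Ly6d alone was lower, against 33.7% and 25.2% of all tested genes. With quantile normalization Ly6d and Ly6c2 were again lower and no member was higher, against 20.4% and 30.5%.

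Ly6a encodes Sca-1, the GPI-anchored protein by which the cells were sorted. Both groups were thus limited to cells with Sca-1 on their surface, and Ly6a RNA of cells below that gate was not measured. The TPM of Ly6a was 105, 108 and 85.2 in the 3 first controls and 449, 50.9 and 369 in VavKO. In the second experiment it was 68.1 and 73.8 in the controls and 124 and 115 in VavReg1_KO_LT-HSC. Of the 5 libraries labelled Reg1Δ/Δ, 4 were above every control of their experiment, and VavKO library 2 was below every control. The log2 fold change was 0.92 (SE 0.51, 95% interval -0.22 to 2.07) and did not pass the test (limma, FDR 0.155; exact permutation test, p = 0.217). Without VavKO library 2 it was 1.45 (interval 0.88 to 2.02) and Ly6a was called higher (limma, FDR 0.0016). VavKO library 2 was the only 1 under its label below its controls, and without it the groups no longer overlapped. The exact permutation p of 0.0167, the smallest that these libraries allow, was thus fixed by leaving it out. With any other single library left out, Ly6a was not called (limma, FDR 0.19 to 0.33).
The call depended on VavKO library 2 and on the scaling. With all 10 libraries and median-of-ratios scaling Ly6a was also called (1.34, interval 0.18 to 2.50, FDR 0.0482). In the second experiment alone Ly6a was higher (log2 fold change 0.74, limma, FDR 0.0366), where 15.8% of tested genes were called in either direction. In the first experiment alone it was not called (1.04, interval -0.84 to 2.92, FDR 0.304), where 50.3% of tested genes were.

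VavKO library 2 was also low in interferon-induced genes. Of 24 such genes chosen with earlier results of these data known, 22 were tested, of which 11 were higher and 6 lower in libraries labelled Reg1Δ/Δ by limma, against 15% and 37.9% of all tested genes, with a median log2 fold change of 0.53 against -0.25. The lowest of the 3 VavKO values was in library 2 for 21 of these 22 genes, compared with 35.9% of all tested genes. Of the 22 genes, 12 nevertheless lay above every first control in library 2, as did 3059 of all 12874 tested genes. The 12 included all 11 that were called higher, but library 2 was itself part of the fit that called them. Iigp1, an interferon-inducible GTPase, had 304, 148 and 233 TPM in the 3 VavKO libraries and 8.43 to 12.3 TPM in the first controls. Igtp, of the same GTPase family, had 495, 284 and 394 TPM against 23.5 to 40.2 TPM. Ly6a differed from both of them, the 2 largest rises of the list, in that library 2 was below its controls. Irf1, a gene of interferon signalling, was like Ly6a in this, at 62.54 TPM in library 2 and 64.78 to 78.95 TPM in the first controls. Of 18 genes of interferon signalling, 3 were higher and 7 lower, shares close to those of all tested genes (15% and 37.9%). Usp18, a negative regulator of the pathway, was among the higher (1.14, FDR 0.00307), and among the lower were Irf2 (-1.46, FDR 1.33e-05) and Irf8 (-2.08, FDR 0.000214). The falls among interferon-induced genes were largest for Ifitm1 (-3.61, FDR 6.34e-06) and Ifi27l2a (-2.69, FDR 0.00193). The counts of the 18 signalling genes moved with the scaling. With quantile normalization 7 were higher and 5 lower, against 30.5% and 20.4% of all tested genes. With median-of-ratios scaling 6 were higher and 5 lower, against 33.7% and 25.2%. Whether interferon signalling had a part in the level of Ly6a was not tested.

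Over the 10 libraries, each centred on the mean of its experiment, the protein-coding genes whose log2(TPM + 1) was most like that of Ly6a were Gbp8 (Pearson r = 0.946), Supt4a (0.944) and Phf11c (0.923). These correlations are a description over 10 libraries that share their 2 experiments. Gbp8, a guanylate-binding protein, had 17.8, 3.84 and 13.5 TPM in the VavKO libraries against 5.57 to 8.44 TPM in their controls, so that library 2 was again below the controls. Supt4a hardly moved (log2 fold change 0.11), and none of these 3 genes passed limma at an FDR of 0.05.

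**Figure D2:**
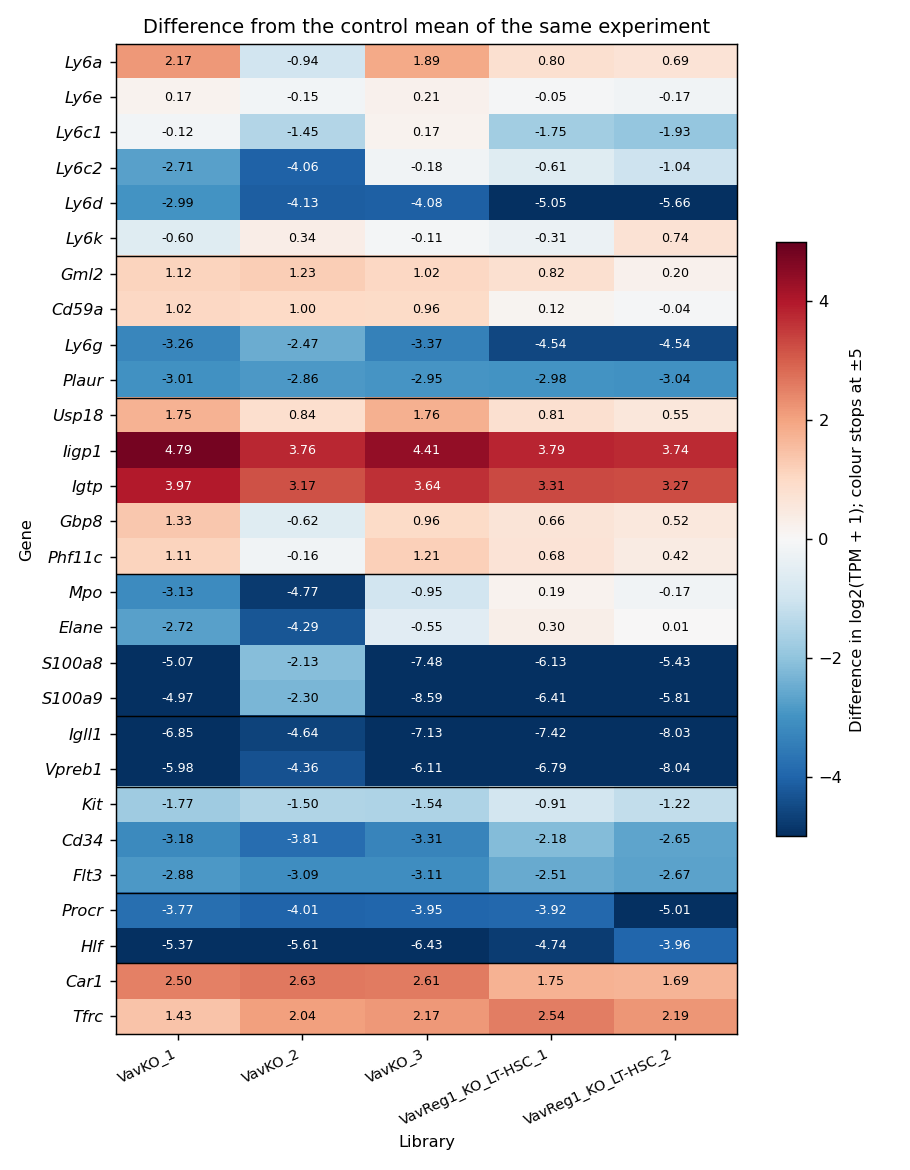
Difference in log2(TPM + 1) of each library labelled Reg1Δ/Δ from the mean of the controls of its experiment (columns) for the 6 members and the genes set beside them (rows), with the value in each field and red for higher. Lines separate, from the top, the members, other Ly6/uPAR genes, interferon genes with genes patterned like Ly6a, neutrophil genes, B lineage genes, sort markers, stem cell genes and erythroid genes; Ly6a was -0.94 in VavKO library 2 and 0.69 to 2.17 in the other 4.

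Ly6e, a broadly expressed and interferon-inducible member, was the most abundant of the 6. It had 814, 826 and 923 TPM in the first controls and 958, 769 and 989 TPM in VavKO, and 1386 and 1334 TPM in the second controls and 1313 and 1211 TPM in VavReg1_KO_LT-HSC. The groups overlapped in the first experiment. Both second-experiment libraries with the Reg1Δ/Δ label were lower than the controls. No difference passed the test, and the interval was narrow (log2 fold change 0.00, SE 0.107, 95% interval -0.24 to 0.24; limma, FDR 0.985). Scaling decided the sign of this value. It was 0.42 with an FDR of 0.00916 under median-of-ratios scaling and -0.09 with an FDR of 0.499 under quantile normalization, when the median of all genes was 0.104 and 0.152 instead of -0.255. Relative to that median, Ly6e stood at 0.26 as reported, at 0.32 with median-of-ratios scaling and at -0.25 with quantile normalization, and Ly6d at -4.13, -4.19 and -4.13. The genes most like Ly6e in pattern were Pi4k2b (r = 0.896), Cgrrf1 (0.870) and Babam1 (0.869), whose log2 fold changes were -0.05 to 0.02.

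Ly6c2 encodes Ly6C2, one of the proteins that Ly6C antibodies detect on monocytes and granulocyte precursors. It had 238, 120 and 278 TPM in the first controls and 29.8, 11.02 and 176 TPM in VavKO, and 150 and 140 TPM in the second controls and 94.9 and 69.8 TPM in VavReg1_KO_LT-HSC. Of the 5 libraries labelled Reg1Δ/Δ, 4 were below every control of their experiment, and VavKO library 3 lay among the controls. Ly6c2 was lower by a log2 fold change of -1.72 (SE 0.652, 95% interval -3.18 to -0.26; limma, FDR 0.0489; exact permutation test, p = 0.0333). This call was at the edge of the threshold. It was lost when any 1 library other than VavKO library 3 was left out (-1.92 to -1.16, FDR 0.051 to 0.107), and without VavKO library 3 the log2 fold change was -2.22 (FDR 0.00954). Ly6c2 was lower but not called in the first experiment alone (-2.32, FDR 0.0782), in the second alone (-0.83, FDR 0.0948) and with median-of-ratios scaling (-1.31, FDR 0.106). With quantile normalization it stayed called (-1.68, FDR 0.0364).

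The genes most like Ly6c2 in pattern included Elane (r = 0.959) and Mpo (0.953). Elane and Mpo encode neutrophil elastase and myeloperoxidase, proteins of the primary granules that are made in early granulocyte precursors. Mpo had 1049 to 1445 TPM in the first controls, 138, 43.8 and 631 TPM in the VavKO libraries, 318 and 321 TPM in the second controls and 364 and 283 TPM in VavReg1_KO_LT-HSC. As for Ly6c2, library 2 was lowest and library 3 highest among VavKO, but in the second experiment Mpo overlapped between the groups while Ly6c2 did not. Most of the neutrophil list did not share this order, since 7 of its 10 genes were lowest in VavKO library 3 and 3 in library 2. S100a8, a calcium-binding protein of neutrophils, ran the opposite way, with 23.2, 185 and 3.56 TPM in the VavKO libraries. Of 10 neutrophil markers 8 were lower by limma, against 37.9% of all tested genes, and their summed TPM was 3085 to 5497 in the first controls, 312.5 to 968.6 in VavKO, 11790 to 13690 in the second controls and 838.4 to 886.2 in VavReg1_KO_LT-HSC. Of 7 tested monocyte markers, 6 were lower, against the same 37.9%, and their sum was 245.7 to 457.6 TPM against 22.6 to 42.2 TPM in the first experiment and 747.3 to 892.1 TPM against 23.6 to 24.2 TPM in the second. The defining marker Csf1r was 3.08 to 7.48 TPM in controls and 0.29 to 1.33 TPM in libraries labelled Reg1Δ/Δ. The part of these markers in the level of Ly6c2 was not tested.

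Ly6c1, which is expressed in lymphocytes and endothelium, was low throughout. It had 1.39, 1.80 and 2.91 TPM in the first controls and 1.74, 0.09 and 2.35 TPM in VavKO, and 1.37 and 5.08 TPM in the second controls and 0.13 and 0 TPM in VavReg1_KO_LT-HSC. The groups overlapped in the first experiment and were apart in the second. The log2 fold change of -1.01 (SE 0.408) did not pass the test (limma, FDR 0.0606; exact permutation test, p = 0.0833). It was called without VavKO library 1 (-1.18, FDR 0.049) and without VavKO library 3 (-1.26, FDR 0.0263). It was smaller and not called without Control_LT-HSC library 2 (-0.68, FDR 0.126) and with quantile normalization (-0.38, FDR 0.512), and -2.35 with a pseudocount of 0.1 (FDR 0.0505). The nearest patterns were those of AC127333.1 (r = 0.979), Pced1b (0.945) and Foxo3 (0.935). Of 5 tested endothelial markers 5 were lower, against 37.9% of all tested genes, and their list summed to 54.0 to 72.3 TPM in the first controls and 6.82 to 8.60 TPM in VavKO, and to 132.5 to 153.8 TPM in the second controls and 12.97 to 15.3 TPM in VavReg1_KO_LT-HSC. Cdh5, which defines endothelium, was 0.01 to 0.32 TPM in the first controls, 9.57 and 10.7 TPM in the second controls, and 0 in all libraries labelled Reg1Δ/Δ. Its part in Ly6c1 was not tested.

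Ly6d was the member with the largest difference. It had 18.0, 32.0 and 34.1 TPM in the first controls and 2.53, 0.60 and 0.66 TPM in VavKO, and 64.3 and 38.0 TPM in the second controls and 0.52 and 0 TPM in VavReg1_KO_LT-HSC. Every library labelled Reg1Δ/Δ was below every control. The mean was 37.3 ± 16.9 TPM (SD, n = 5) in controls and 0.863 ± 0.969 TPM (SD, n = 5) in libraries labelled Reg1Δ/Δ. The log2 fold change was -4.38 (SE 0.382, 95% interval -5.24 to -3.52; limma, FDR 1.28e-05), which was the 45th largest fall among the 12874 tested genes, and the exact permutation test gave p = 0.0167, the smallest that 120 assignments allow. The fall was called in each experiment alone (-3.73, FDR 0.000476, and -5.35, FDR 0.0237). Its size depended on the pseudocount, as the lower values were near 0 TPM, and with a pseudocount of 0.1 it was -5.81 (FDR 0.000237).

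Ly6d fell together with the B lineage markers. All 8 of the 8 tested markers were lower by limma, against 37.9% of all tested genes, led by Igll1 (-6.81, FDR 3.99e-05) and Vpreb1 (-6.26, FDR 6.43e-05), which encode the surrogate light chain of the pre-B-cell receptor. The summed TPM of the list was 173.9 to 1066 in the first controls, 5.45 to 22.9 in VavKO, 1218 to 1404 in the second controls and 2.88 to 7.65 in VavReg1_KO_LT-HSC. Ly6d did not follow these genes in every library. Within VavKO, the list was highest in library 2, where Ly6d was 0.60 TPM, while Ly6d was highest in library 1, at 2.53 TPM. Control library 1 had the lowest sum of the list and the lowest Ly6d of the controls. The closest patterns were those of Tceal5 (r = 0.995), Tmem121 (0.993) and Trim30a (0.992), which were all lower (log2 fold changes of -2.24, -2.62 and -1.35; limma, FDR 6.41e-05, 1.76e-05 and 2.34e-05). The part of B lineage cells in the level of Ly6d was not tested.

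Ly6k, known from testis and sperm, was at or near background and was not tested by limma. It had 0.31, 0.51 and 1.94 TPM in the first controls, 0.19, 1.28 and 0.66 TPM in VavKO, 0.53 and 0 TPM in the second controls and 0 and 1.06 TPM in VavReg1_KO_LT-HSC. The groups overlapped in both experiments, and the difference of 0.01 on the log2 scale was within the spread (exact permutation test, p = 1).

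**Figure D3:**
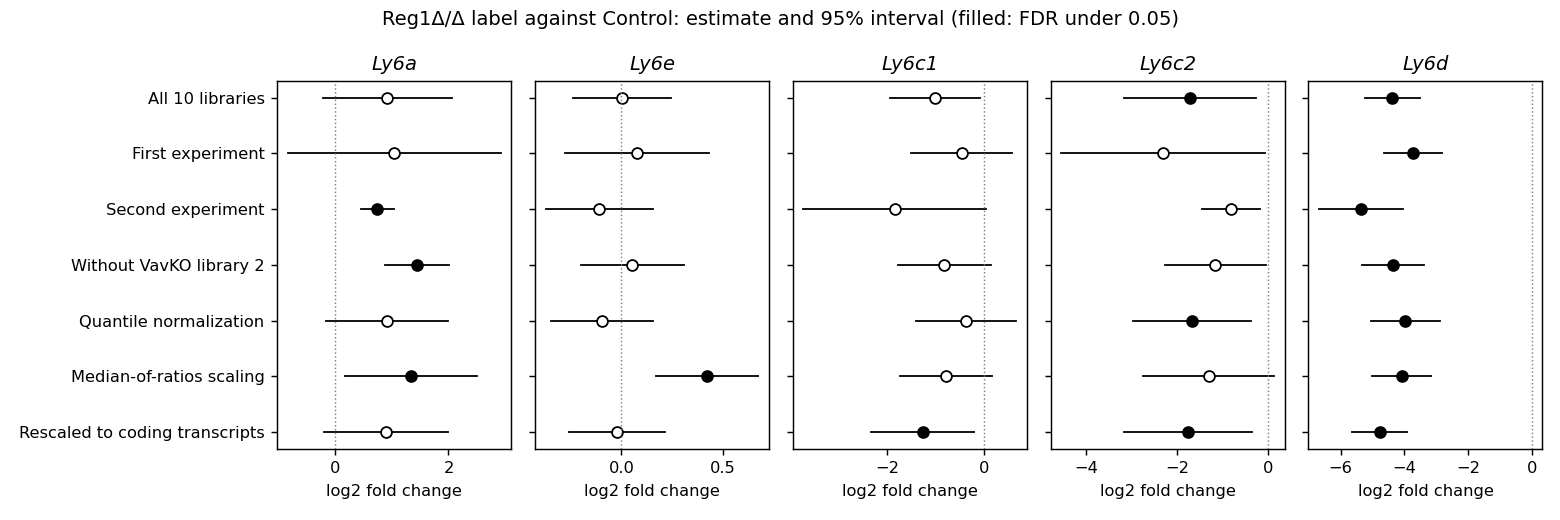
Log2 fold change (Reg1Δ/Δ label over Control) of the 5 tested members with its 95% interval, on all 10 libraries, in each experiment, without VavKO library 2 and under 3 other scalings; filled circles have an FDR under 0.05 by limma, and the scale differs between panels. Ly6d was called in all 7 rows, from -3.73 to -5.35, and the interval of Ly6a lay above 0 in the second experiment, without VavKO library 2 and under median-of-ratios scaling.

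Ratios between members of 1 library hardly depend on how that library was scaled. The log2 ratio of Ly6a to Ly6c2 (pseudocount 1) was -1.18, -0.15 and -1.69 in the first controls, 3.87, 2.11 and 1.07 in VavKO, -1.12 and -0.92 in the second controls and 0.38 and 0.72 in VavReg1_KO_LT-HSC. Ly6c2 was thus the higher gene in 5 of 5 controls and Ly6a in 5 of 5 libraries labelled Reg1Δ/Δ, VavKO library 2 among them, and the groups did not overlap. The difference was 2.64 (two-sided exact test permuting labels within experiments, p = 0.0167; 0.0333 after adjustment over the 10 ratios of the 5 members). In VavKO library 2 both genes were low, with Ly6a at 50.9 TPM and Ly6c2 at 11.02 TPM.

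Of the 10 ratios, 7 passed at an adjusted p of 0.05, a count with no share of other gene pairs to set it against. Of all tested genes, 37.9% were lower and 15% higher by limma. The 10 ratios share their members and are not independent of one another. Those of Ly6a to Ly6c1 (difference 1.94), of Ly6a to Ly6d (5.30), of Ly6e to Ly6d (4.38) and of Ly6c1 to Ly6d (3.37) had an exact permutation p of 0.0167 (adjusted 0.0333). Those of Ly6e to Ly6c1 (1.02) and to Ly6c2 (1.72) had an exact permutation p of 0.0333 (adjusted 0.0476). The ratios of Ly6a to Ly6e (0.92), of Ly6c1 to Ly6c2 (0.71) and of Ly6c2 to Ly6d (2.66) did not pass (exact permutation p of 0.183, 0.333 and 0.0833). Without VavKO library 2, where Ly6a was below its controls, the ratio of Ly6a to Ly6e differed by 1.39. The groups were then apart, which fixes the exact permutation p at its smallest, 0.0167. With any other single library left out, this ratio did not pass (exact permutation p from 0.183 to 0.3). The ratios of Ly6e to Ly6c1 and to Ly6c2 were the least firm of the 7. Before adjustment, the first exceeded 0.05 without Control library 2 or 3, VavKO library 2 or either VavReg1_KO_LT-HSC library (0.88 to 1.09, exact permutation p from 0.0667 to 0.117), and the second without any 1 of the 3 first controls or VavReg1_KO_LT-HSC library 2 (1.53 to 1.83, exact permutation p from 0.0667 to 0.117). The second was at an exact permutation p of 0.05 without either second control, VavKO library 2 or VavReg1_KO_LT-HSC library 1, which would not pass after adjustment. Where a denominator was near 0 TPM, the pseudocount set the size of the difference. With a pseudocount of 0.1 it was 3.27 for Ly6a to Ly6c1, 6.74 for Ly6a to Ly6d, 5.81 for Ly6e to Ly6d and 2.35 for Ly6e to Ly6c1, the last past 0.05 before adjustment (exact permutation p = 0.0833), while Ly6c2 to Ly6d was 4.06 (exact permutation p = 0.0333). In VavReg1_KO_LT-HSC library 2 both Ly6c1 and Ly6d were listed at 0. Ly6e made up 76.3% ± 7.0 (SD, n = 5) of the summed TPM of the family in controls and 79.1% ± 12.8 (SD, n = 5) in libraries labelled Reg1Δ/Δ. The share of Ly6d went from 2.66% ± 0.845 to 0.0649% ± 0.067, that of Ly6c2 from 14.0% ± 6.09 to 5.20% ± 4.02 and that of Ly6a from 6.80% ± 2.57 to 15.5% ± 11.3 (SD, n = 5 each; exact permutation p of 0.0167, 0.0333 and 0.1). None of the 6 shares passed after adjustment over them, the lowest adjusted value being 0.1.

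**Figure D4:**
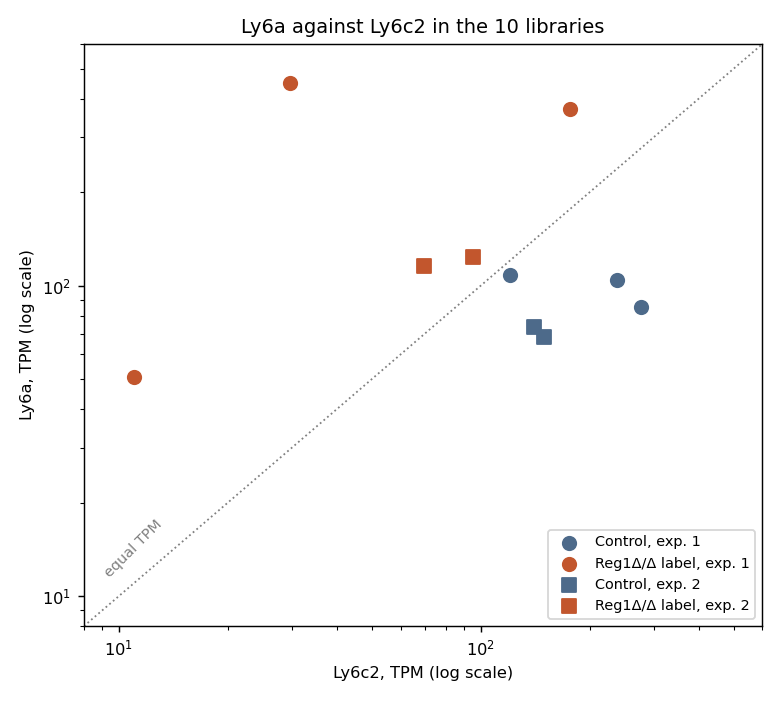
TPM of Ly6a (y axis) against Ly6c2 (x axis), both on log scales, in the 10 libraries, with a dotted line at equal TPM; circles are the first experiment and squares the second. All 5 controls lie below the line and all 5 libraries labelled Reg1Δ/Δ above it.

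At the level of transcripts, 19 of the 35 were tested, and 2 were lower and 0 higher (limma, FDR under 0.05), against 21.3% of all transcripts called in either direction. They were the single transcript of Ly6d and Ly6c2-203 (log2 fold change -2.37, FDR 0.0278). Ly6c2-201, which made up 65.9% to 94.2% of Ly6c2, was not called (-1.59, FDR 0.134).
The transcripts of Ly6a divided the experiments and not the labels. Of its 6 transcripts, 5 carry the whole coding sequence of 402 bases, and Ly6a-204 starts 397 bases upstream of Ly6a-201 and has 4 exons in place of 3. Ly6a-201 made up 71.8% to 79.1% of Ly6a in the 6 libraries of the first experiment and was listed at 0 in all 4 libraries of the second, where Ly6a-204 made up 78.5% to 83.7%. In VavKO library 2 the shares of Ly6a-201 and Ly6a-204 were 71.8% and 21.3%, near those of the other first-experiment libraries.
Ly6e did so as well. Ly6e-213, which is annotated with an incomplete coding sequence of 358 bases, made up 15.3% to 16.6% of Ly6e in the first experiment and 34.0% to 35.7% in the second. Ly6e-215, with the coding sequence of 408 bases, made up 80.9% to 82.5% and 59.4% to 62.2%. Protein-coding transcripts took 46.2% to 49.1% of all TPM in the first experiment and 73.5% to 81.1% in the second. What set the shares was not tested.

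**Figure D5:**
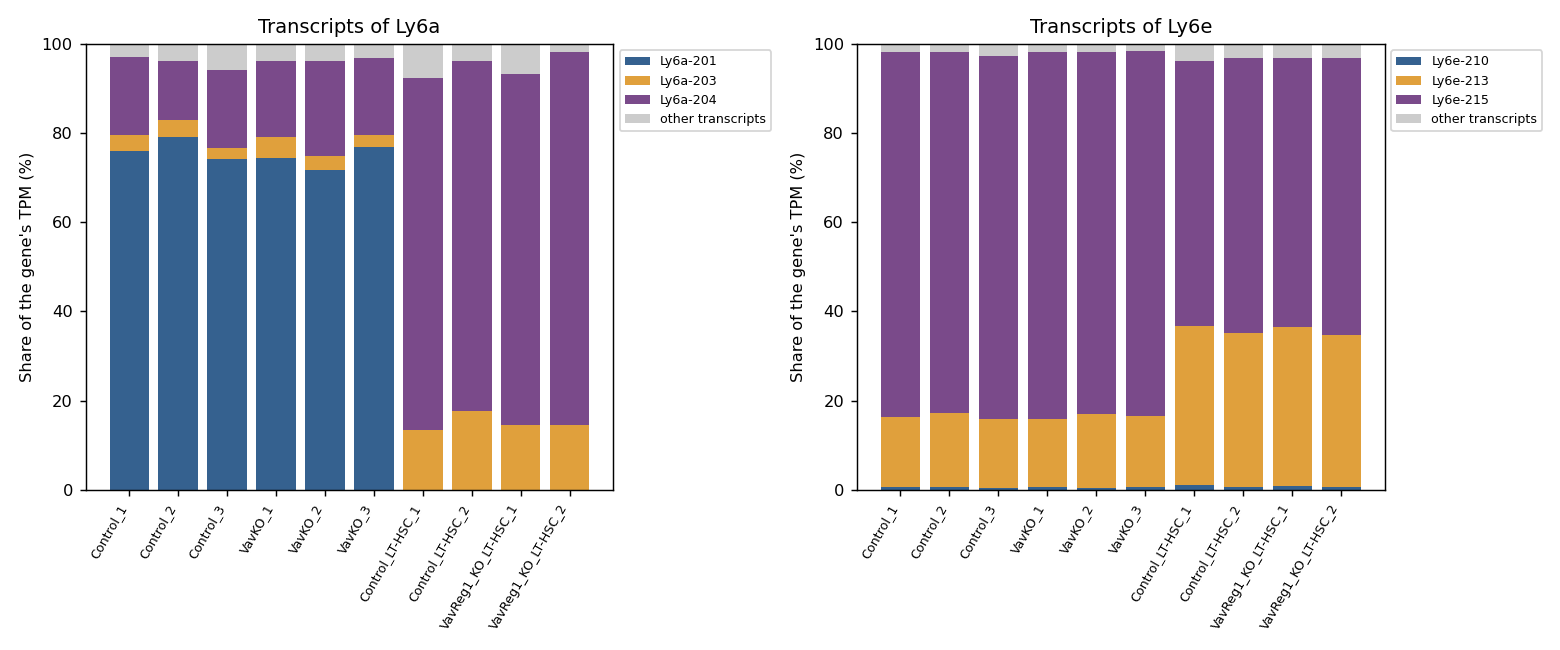
Share of the TPM of Ly6a (left) and Ly6e (right) that each transcript took in the 10 libraries, in percent; the 3 transcripts with the highest mean share are coloured, and grey is the rest. Ly6a-201 took 71.8% to 79.1% in the 6 libraries of the first experiment and 0 in the 4 of the second, whichever the label.

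Of 36 other genes of the Ly6/uPAR family, 25 were in the tables and 5 were tested, of which 2 were higher and 2 lower by limma, against 15% and 37.9% of all tested genes. Ly6g, the neutrophil marker recognised by antibodies to Gr-1, lies in the same cluster as the members and was lower (6.00 to 24.1 TPM in controls, 0 to 0.85 TPM in libraries labelled Reg1Δ/Δ; log2 fold change -3.64, FDR 1.42e-05). Plaur, the urokinase receptor, was also lower (9.57 to 34.0 TPM against 0.44 to 1.37 TPM; -2.97, FDR 2.01e-05). Gml2 (0.88, FDR 0.0132) and Cd59a, an inhibitor of complement (0.61, FDR 0.0196), were higher, and the groups overlapped in the second experiment for Cd59a.

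Most Ly6 proteins need the synthesis of the GPI anchor for their place on the membrane. Of 27 tested genes of that pathway, 2 were higher and 6 lower, against 15% and 37.9% of all tested genes. These counts moved with the scaling, as those of all genes did. With quantile normalization 14 were higher and 3 lower, against 30.5% and 20.4% of all genes, and with median-of-ratios scaling 15 were higher and 1 lower, against 33.7% and 25.2%. Piga, the catalytic subunit of the first step, and its partner Pigq were higher (0.55, FDR 0.00466, and 0.60, FDR 0.0214), and Pigx, a partner of the first mannosyltransferase, and Pgap2, which remodels the anchor, were lower (-1.34, FDR 4.75e-05, and -0.72, FDR 0.0133). Of 13 tested genes of other GPI-anchored surface proteins, 5 were higher and 6 lower, against 15% and 37.9% of all tested genes. Folr1 (1.09, FDR 0.00229) and Cd55, another complement inhibitor (0.82, FDR 0.00367), rose most, and Procr (-4.13, FDR 7.05e-07) and Cd52 (-3.39, FDR 4.04e-06) fell most.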

How the data were processed

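RNA of sorted CD34- HSCs was measured in 10 libraries, and nothing else of the study was analysed here. According to the labels and the study's methods, the authors prepared cDNA with a SMART-Seq type kit, aligned reads with STAR to GRCm38, quantified GENCODE transcripts with Salmon 0.9.1 and deposited a log2(TPM + 1) value for each transcript. The log2 transformation was inverted and TPM summed per gene. Genes were fitted with limma 3.58.1 in R 4.3.3 (pseudocount 1, Benjamini-Hochberg). Single values and ratios were tested by permuting labels within experiments (120 assignments), with Python 3.11.15. limma was tested on simulated data, in which it recovered 70 of 101 genes planted at a log2 change of 1 and 94 of 99 planted at 2, and 7.34% of calls were unchanged genes. Only 200 of 12874 genes were changed there, a far smaller share than was called in the data. These rates are therefore not those of the reported calls. Members and lists were chosen with earlier results of these data known. Named genes are the members, Zc3h12a, the sort markers, the 2 largest rises and falls at FDR under 0.05 in each list and the 3 protein-coding genes most correlated with each member. Csf1r and Cdh5 were named as markers, Irf1 for its level in VavKO library 2 and Gm17189 for its position. Some genes that this rule names are not reported here. Nothing in the labels says that libraries came from separate mice, so p-values measure the spread between libraries. The header of the second VavReg1_KO_LT-HSC library carried the name of the first, but the values differed. Positions and sequences are from GENCODE M21, of the same build. Of 95912 transcripts, 94051 were found there and searched for shared runs.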

Additional observations from a re-analysis of the deposited data

How the results depend on the processing

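Ly6d kept its direction and call in all 20 alternatives that gave a value (-5.81 to -3.73), and every alternative of Ly6a was above 0 (0.60 to 1.45). Without an experiment covariate 716 genes were higher and 3052 lower, in the second experiment alone 452 and 1581, with quantile normalization 3921 and 2627 and with median-of-ratios scaling 4334 and 3245, against 1933 and 4880 as reported. Leaving out 1 library gave 1548 to 1961 higher and 4409 to 5242 lower. Ly6a passed in the second experiment alone (0.74) and with median-of-ratios scaling (1.34), and ranged from 0.60 to 1.45 with 1 library left out. Ly6e passed with median-of-ratios scaling (0.42) and was below 0 in the second experiment alone (-0.11), with quantile normalization (-0.0949) and rescaled to protein-coding transcripts (-0.0214), with a range of -0.0447 to 0.0544 when 1 library was left out. Ly6c1 passed when rescaled to protein-coding transcripts (-1.26), ranged from -1.26 to -0.68 with 1 library left out, and was -2.35 with a pseudocount of 0.1 and -0.38 with quantile normalization. Ly6c2 lost its call with no filter and with no covariate (-1.72 each), with a pseudocount of 0.1 (-1.75), in the first (-2.32) and second (-0.83) experiment alone and with median-of-ratios scaling (-1.31), and ranged from -2.22 to -1.16. Ly6k was below 0 in the first experiment alone (-0.12) and rescaled to protein-coding transcripts (-0.0105), and ranged from -0.18 to 0.22. The cause of these changes was not tested. Ly6c1, Ly6d and Ly6k had no value when every library had to reach 1 TPM. For the ratios, alternatives were chosen after seeing the data. The difference in the ratio of Ly6a to Ly6c2 was 2.13 to 2.89 with 1 library left out (exact permutation p from 0.0167 to 0.0333), and that of Ly6c1 to Ly6c2 was -0.60 with a pseudocount of 0.1.

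When the fit took the replicate number as a block, limma called 1703 genes higher and 4545 lower, and no call of a member changed (Ly6c2: FDR 0.0243; Ly6d: FDR 0.000461). Same-numbered libraries of the first experiment correlated by 0.033 to 0.175 in their deviations from the group means and those of the second by -0.054, and 4 of the 6 libraries of the first correlated best with their own number, so the pairing rests on the numbers alone. Depth is unknown, and values near 0, as for Ly6c1, Ly6d and Ly6k, have an unknown counting error.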

Other observations

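Marker transcripts of other blood cell types also differed between the labels. The cells were sorted as lineage-negative, and the source of these transcripts was not tested. Over all tested genes, limma called 37.9% lower and 15% higher. Of 6 tested megakaryocyte markers, 6 were lower by limma, among them Gp9, a platelet glycoprotein (log2 fold change -2.15, FDR 6.38e-06). Of 4 tested markers of plasmacytoid dendritic cells, Bst2, which interferon induces, was higher (0.59, FDR 0.00507), and the other 3 were lower, with the transcription factor Runx2 at -2.37 (FDR 9.3e-06). Both tested T and NK cell markers, Cd4 (-1.79, FDR 0.00125) and Nkg7 (-0.92, FDR 0.000761), were lower, but only 2 of the 8 genes of the list were tested, and neither was called by limma in the second experiment alone. Among the erythroid genes, Car1, a carbonic anhydrase (2.24, FDR 0.00111), and Tfrc, the transferrin receptor (2.07, FDR 2.09e-05), were higher, while the globin genes Hba-a1 (-2.50, FDR 0.000126) and Hbb-bt (-2.14, FDR 0.000354) were lower.

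Centred on each experiment, the members differed in how they moved together over the 10 libraries, given here as a description. Pearson's r was 0.66 between Ly6a and Ly6e, 0.70 between Ly6c1 and Ly6d, 0.59 between Ly6c1 and Ly6c2 and 0.57 between Ly6c2 and Ly6d. It was 0.04 between Ly6a and Ly6c2 and -0.42 between Ly6a and Ly6d.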
